A study of Mus musculus with 9 samples.

Results

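The genes described here encode the DEAD and DEAH box RNA helicases of the mouse. They were chosen by name, as the protein-coding genes of the GENCODE M21 annotation whose symbol starts with Ddx or Dhx and a digit, and 2 further genes whose names fit were set aside. The rule found 51 genes among the 21253 rows of the count table, 35 of them named Ddx and 16 named Dhx. Of these 51, 48 passed the filter on low counts that left 12535 genes to test, and the other 3 are germ-line genes with few counts.

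RNA was sequenced from 9 samples of mouse AKP tumoroids, 3 in each of 3 groups. AKP is the labels' name for this tumour organoid model and is not spelled out there. Every group carried the same hairpin against Apc (shAPC), which works while doxycycline is present. The Apc OFF samples stayed in doxycycline, and the restored groups were collected 2 days and 7 days after its removal. The labels describe the removal as a way to make the organoids differentiate, and call the replicates technical. All samples are of 1 kind of organoid. A p-value here therefore sets a difference against the scatter among these samples, and that scatter may be purely technical. Doxycycline removal, Apc restoration and time in culture cannot be told apart in this design. The sources used here do not give the strain or age of the source animals. In bulk samples such as these, fewer cells of a type and less RNA per cell cannot be told apart.

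As background, DEAD and DEAH box helicases are named after amino acids of a conserved motif and use ATP to open short RNA duplexes or to strip proteins from RNA. Most act at one step of the life of an RNA: assembly of ribosomes in the nucleolus, splicing, export of mRNA, translation, decay or the sensing of viral RNA. Many are needed in every cell, and fast-growing cells, such as those of intestinal tumours, spend much of their RNA metabolism on making ribosomes.

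The libraries held 24143589 to 32277040 counts each. Levels are CPM, counts scaled to a common library total with TMM factors (trimmed mean of M values), and changes are log2 fold changes with their SE from a fit across all genes. A gene is called higher or lower where the Benjamini-Hochberg adjusted p of edgeR's quasi-likelihood test over all 12535 genes is under 0.05. Apc itself had 6.8, 6.83 and 8.84 CPM with Apc OFF, 31.8, 38.1 and 24.8 CPM after 2 days and 67.9, 69.9 and 92.9 CPM after 7 days, so the groups did not overlap and followed the labels. All 5 epithelial markers were detected in every sample, with a summed level of 6970 to 8850 CPM with Apc OFF, 9490 to 10600 CPM at 2 days and 15200 to 20100 CPM at 7 days. Markers of stroma summed to at most 1.12 CPM and those of endothelium to at most 2.27 CPM in any sample. The 7-day libraries stood apart in composition: their TMM factors were 0.785 to 0.874, against 1.073 to 1.125 with Apc OFF and 1.093 to 1.117 at 2 days.

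Ddx60 was the helicase gene with the largest rise, and Dhx33, Ddx27 and Dhx37 were among those that fell at both times. The promoters of these 4 genes are printed here as examples that hold a motif. Each runs from 250 bases before to 50 bases after the gene's start in RefSeq (GRCm38.p6), 5′ to 3′ on the gene's strand. Capitals mark matches to a motif on either strand: GAAA followed by any 2 bases and GAAA again, the core of the element bound by interferon regulatory factors, in Ddx60; CACGTG, the E-box bound by Myc and related factors, in Dhx33; and CCGGAAG, the core bound by ETS factors, in Ddx27 and Dhx37. The Ddx60 window (chr8:61927837-61928136, plus strand) holds its motif at 53 and at 19 bases before the start. The Dhx33 window (chr11:71004383-71004682, minus strand) holds it at 35 bases before, Ddx27 (chr2:167015063-167015362, plus strand) at 2 bases before and Dhx37 (chr5:125433999-125434298, minus strand) at 64 bases before.
Ddx60: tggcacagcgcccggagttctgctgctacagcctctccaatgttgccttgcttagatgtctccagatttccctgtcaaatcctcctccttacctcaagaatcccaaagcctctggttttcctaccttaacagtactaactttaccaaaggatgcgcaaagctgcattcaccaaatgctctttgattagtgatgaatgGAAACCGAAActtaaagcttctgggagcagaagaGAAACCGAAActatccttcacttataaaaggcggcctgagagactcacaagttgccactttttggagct
Dhx33: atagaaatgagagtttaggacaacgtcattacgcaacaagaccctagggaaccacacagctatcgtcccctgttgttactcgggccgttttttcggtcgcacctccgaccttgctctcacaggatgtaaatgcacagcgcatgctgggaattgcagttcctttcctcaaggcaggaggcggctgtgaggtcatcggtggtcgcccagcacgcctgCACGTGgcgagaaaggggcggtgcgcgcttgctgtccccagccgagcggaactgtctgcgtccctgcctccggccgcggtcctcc
Ddx27: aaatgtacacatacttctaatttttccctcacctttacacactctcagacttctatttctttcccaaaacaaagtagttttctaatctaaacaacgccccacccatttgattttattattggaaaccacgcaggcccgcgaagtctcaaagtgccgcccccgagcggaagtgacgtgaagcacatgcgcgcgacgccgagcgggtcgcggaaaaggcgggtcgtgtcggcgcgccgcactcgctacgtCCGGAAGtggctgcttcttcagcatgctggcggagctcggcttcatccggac
Dhx37: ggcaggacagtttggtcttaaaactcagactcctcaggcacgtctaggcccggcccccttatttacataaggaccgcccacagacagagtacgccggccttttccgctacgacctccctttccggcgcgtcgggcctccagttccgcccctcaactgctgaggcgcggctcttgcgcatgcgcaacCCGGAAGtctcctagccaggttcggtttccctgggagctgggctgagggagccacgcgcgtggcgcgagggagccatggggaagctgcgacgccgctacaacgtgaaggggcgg

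Of the 51 helicase genes, 45 had a promoter in the RefSeq table, and Ddx6, Ddx11, Ddx23, Ddx39, Dhx38 and Dhx58 had no entry. CCGGAAG was found in 19 of the 45 (42.2%), against 19.9% of the 10088 tested genes with an entry and 9.93% of all 27025 genes in the table. It was found in 8 of the 16 ribosome assembly genes and in all 3 transcription coregulator genes. CACGTG was found in 7 of the 45 (15.6%), against 11.5% of tested genes and 8.09% of all. The paired GAAA motif was found in 2 of the 45, Ddx60 and Ddx49, or 4.44%, against 3.76% of tested genes and 3.99% of all. TATAAA was found in 5 of the 45 (11.1%), against 9.61% of tested genes and 15.7% of all. The paired GAAA motif and CCGGAAG were searched after the changes of the genes had been seen. Neither CACGTG nor CCGGAAG was found only in genes that fell. Ddx18, Ddx20, Ddx21, Ddx31 and Ddx51, which were also called lower at both times, hold neither. Ddx49, Ddx50, Ddx54 and Dhx34, not called at 7 days against Apc OFF, hold CCGGAAG. Dhx40, called higher at 7 days, holds CACGTG. In the 4 promoters printed, no match to one motif overlaps a match to another. A match describes the letters and does not show a bound site.

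Ordered by level per length, Ddx21, an rRNA-processing helicase of the nucleolus, stood highest with Apc OFF at a mean of 117 CPM per kb of exon. Ddx3x, a translation helicase encoded on the X chromosome, followed at 99 CPM per kb and Ddx39, an mRNA export helicase, at 85 CPM per kb. Ddx5, a transcription coregulator, had 83.7 CPM per kb and Ddx18, a helicase of large-subunit assembly, 81.8 CPM per kb. At 7 days the order of levels differed: Ddx3x ranked 1, at 75.3 CPM per kb, Ddx5 ranked 2, at 73.8 CPM per kb, and Ddx21 ranked 4, at 35.6 CPM per kb. Dhx32, a DEAH helicase of little-known function, ranked 3 at 7 days, at 51 CPM per kb, and 15 with Apc OFF, at 29.6 CPM per kb.

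Together the 51 genes made up 0.71% to 0.74% of all counts with Apc OFF, 0.627% to 0.662% at 2 days and 0.319% to 0.346% at 7 days. Their summed level was 6620, 6700 and 6580 CPM with Apc OFF, 6000, 5980 and 5610 CPM after 2 days and 4070, 3970 and 3970 CPM after 7 days. The 3 groups did not overlap, and the 7-day sum was 0.603 of that with Apc OFF.

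After 2 days of Apc restoration, changes were small and mostly downward. Of the 48 tested helicase genes, 12 were lower (25%) and 2 higher (4.17%), beside 10.6% lower and 13.1% higher among all genes tested. The median log2 fold change of the helicase genes was −0.17, that of all genes tested was 0, and 41 of the 48 lay below the all-gene median. The 12 were the ribosome assembly genes Ddx18, Ddx21, Ddx27, Ddx31, Ddx51, Dhx33 and Dhx37, the splicing genes Ddx20 and Dhx8, the export gene Ddx39, the mitochondrial gene Dhx30 and Ddx11. None of the 12 fell by 2-fold or more, beside 1.68% of all genes, and 1 gene, Ddx60, rose by 2-fold or more, beside 3.34%. In 23 of the 48 all 3 samples at 2 days lay below all 3 with Apc OFF, beside 19.4% of all genes, and in 2 they lay above, beside 19.9%. The count of 12 depended on single samples: it was 7 without Apc OFF replicate 1, 5 without Apc OFF replicate 2 and 7 without 2-day replicate 3, where 7.32%, 6.4% and 7.45% of all genes were lower. The count of 2 higher was 1 without Apc OFF replicate 1 or without 2-day replicate 1.

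After 7 days, 37 of the 48 (77.1%) were lower and 6 (12.5%) higher, beside 41.8% lower and 40.5% higher among all genes tested. The median log2 fold change was −0.80 for the helicase genes and −0.03 for all genes tested. Of the 48, 21 were at least 2-fold lower, beside 19.6% of all genes, and 2 at least 2-fold higher, beside 22.3%. In 37 of the 48 the 7-day samples lay below all Apc OFF samples, beside 41.8% of all genes, and in 5 above, beside 40.5%. The 5 genes not called were Ddx49, Ddx50 and Ddx54 of ribosome assembly, Dhx34 and Dhx38. With library size alone all 5 were called lower. Ddx49 was called in 6 of 20 alternatives and Ddx54 in 5. Both comparisons with Apc OFF use the same 3 Apc OFF samples.

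Between 7 and 2 days, which the design also allows to be compared, 34 of the 48 (70.8%) were lower and 4 (8.33%) higher, beside 39.9% lower and 39.2% higher among all genes tested. The medians were −0.65 for the helicase genes and −0.03 for all genes. At least 2-fold lower were 15 of the 48, beside 16.2% of all genes, and at least 2-fold higher were 2, beside 19.3%. In 35 of the 48 the 7-day samples lay below all 2-day samples, beside 40.2% of all genes, and in 6 above, beside 39.2%. The 4 higher were Ddx60 (28.2-fold, edgeR adjusted p = 4.2e-12), Dhx58 (16-fold, edgeR adjusted p = 1e-08), Dhx32 (1.41-fold, edgeR adjusted p = 1.2e-05) and Ddx6 (1.2-fold, edgeR adjusted p = 0.022). The Dhx32 call was lost with library size alone (log2 fold change 0.07, edgeR adjusted p = 0.25), and the Ddx6 call was lost in 6 of 20 alternatives. These were library size alone (−0.15, edgeR adjusted p = 0.23), upper-quartile factors (0.14, edgeR adjusted p = 0.21), glmTreat against a fold of 1.2 (adjusted p = 0.34), and the fits that left out 2-day replicate 1, 2-day replicate 3 or 7-day replicate 3, with edgeR adjusted p up to 0.096. The largest falls were those of Ddx41 (log2 fold change −1.72, edgeR adjusted p = 2.1e-10), Dhx29 (−1.67, edgeR adjusted p = 2.3e-10), Ddx31 (−1.62, edgeR adjusted p = 2.3e-10) and Ddx11 (−1.60, edgeR adjusted p = 6.1e-10).

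Scaling moved these values. With library size alone the all-gene median at 7 days against Apc OFF was −0.43 and that of the helicase genes −1.20. A change of scaling moves all genes by about the same amount. The gap between these medians was therefore bound to stay, at −0.77 under both scalings. With that scaling 42 were lower and 3 higher, and 65.2% of all calls were lower, against 50.8% with TMM. Against 2 days it was 41 lower and 2 higher, with 68.2% of all calls lower, against 50.5% with TMM.

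**Figure D1:**
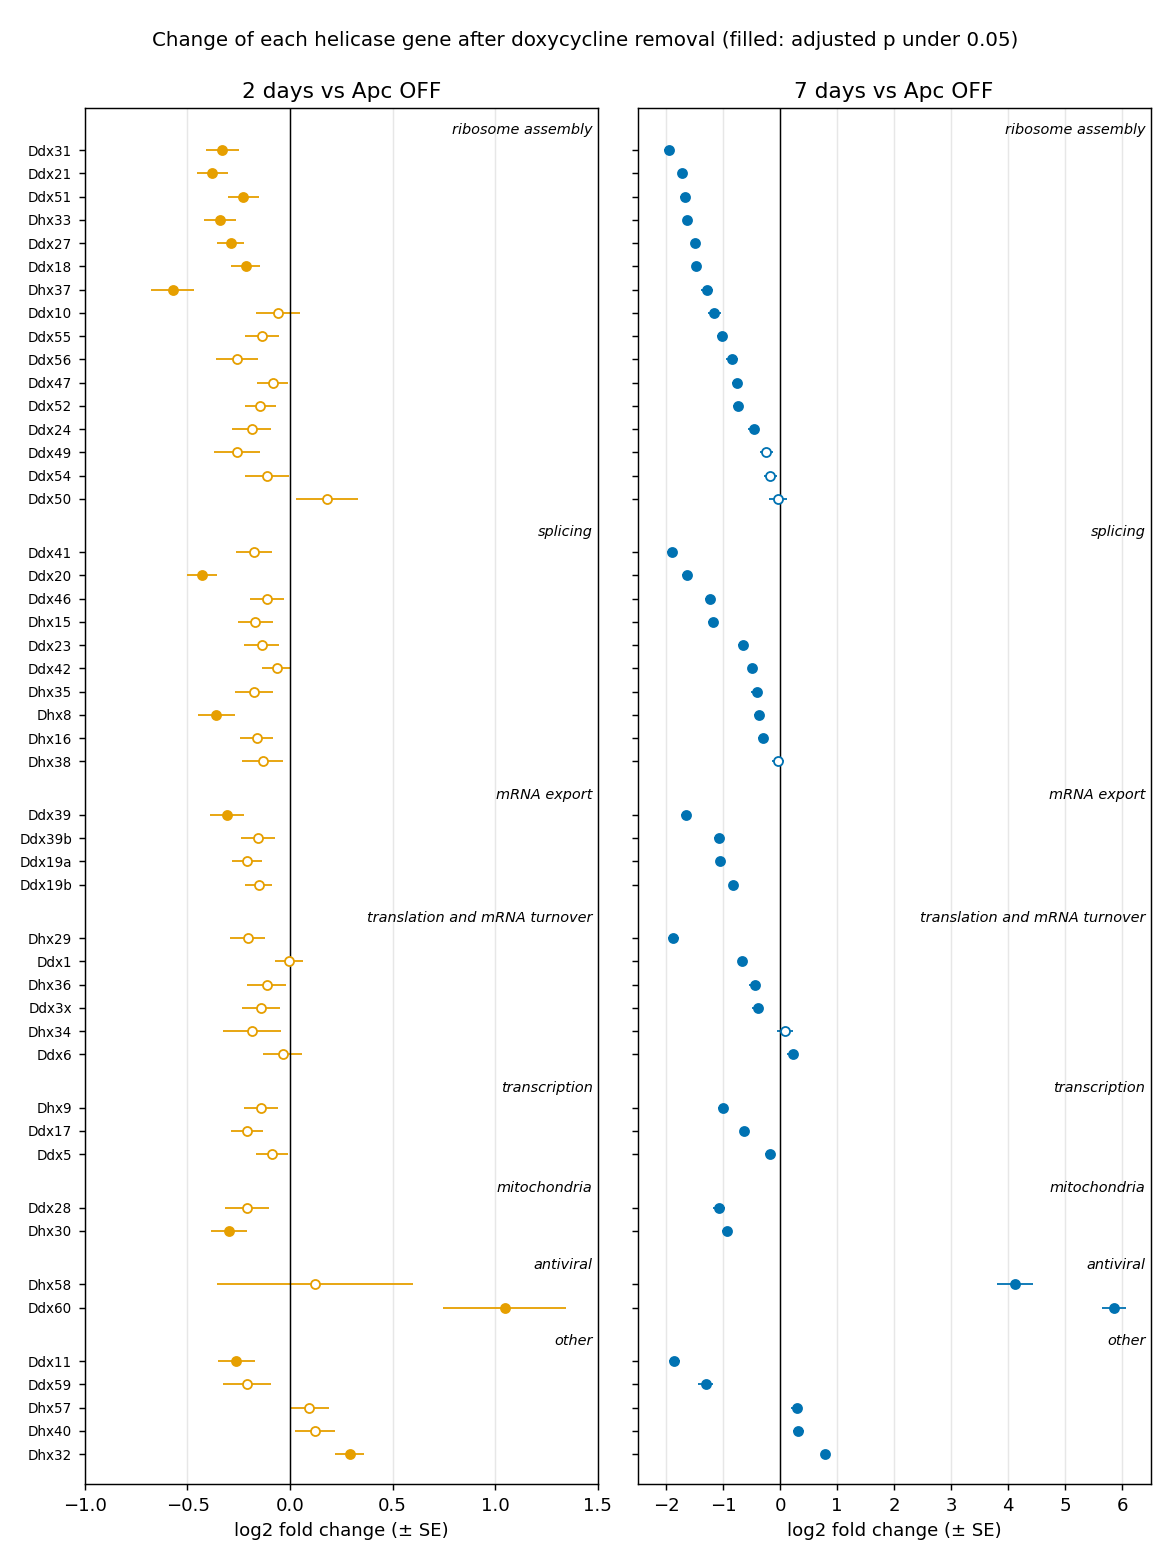
Log2 fold change with SE (horizontal axes, with different ranges) of the 48 tested helicase genes at 2 days (left) and 7 days (right) against Apc OFF, grouped by role; filled points passed an adjusted p of 0.05. At 7 days 37 points lie filled on the lower side, and Ddx60 and Dhx58 stand far to the right.

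**Figure D2:**
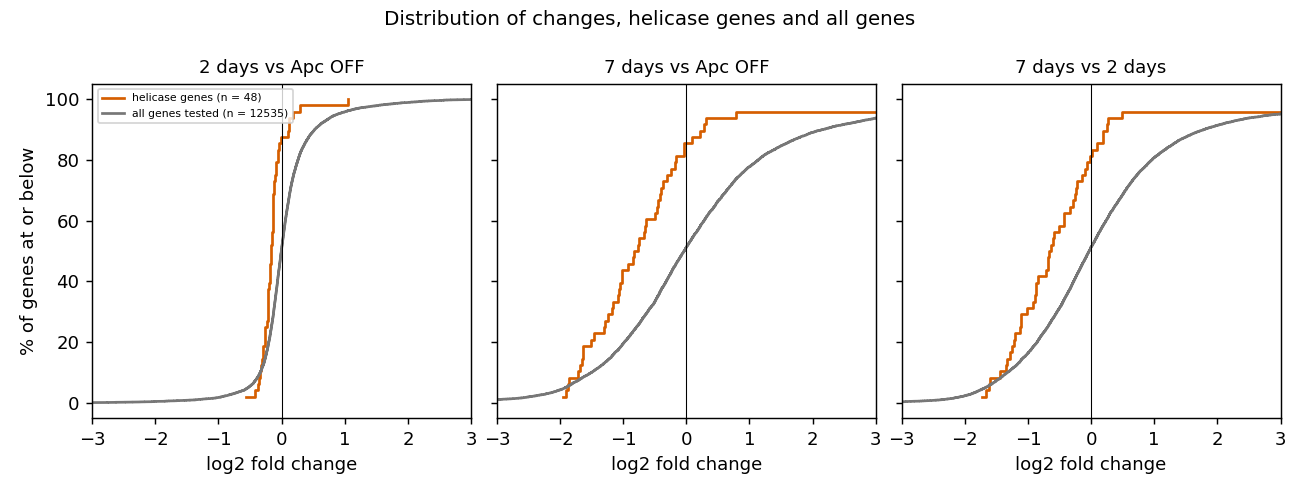
Cumulative percent of genes (vertical axis) at or below each log2 fold change (horizontal axis, drawn from −3 to 3) for the 48 helicase genes and the 12535 genes tested, in the 3 comparisons. The helicase curve lies to the left of the all-gene curve over most of its length, with medians of −0.17, −0.80 and −0.65 against 0, −0.03 and −0.03.

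Helicases of ribosome assembly were the largest role, with 16 genes, all tested. At 2 days 7 were lower, beside 10.6% of all genes tested, with a median log2 fold change of −0.22. At 7 days 13 were lower, beside 41.8% of all genes, with a median of −1.09. No gene of this role, of splicing, of mRNA export or of mitochondria was higher at either time in edgeR, at an unadjusted p under 0.05, by DESeq2 or by limma-voom. Their summed level was 2080, 2090 and 1970 CPM with Apc OFF, 1760, 1740 and 1640 CPM after 2 days and 1010, 960 and 914 CPM after 7 days, or 0.469 of Apc OFF at 7 days.

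Ddx21 (ENSMUSG00000020075, GRCm38 chromosome 10, 62580251 to 62602281, minus strand) had 600, 616 and 599 CPM with Apc OFF, 483, 486 and 427 CPM after 2 days and 187, 180 and 185 CPM after 7 days. The groups did not overlap, and replicates lay close together at 7 days. Its mean was 465 ± 33.4 CPM at 2 days, against 605 ± 9.37 CPM with Apc OFF (SD, n = 3 each), a fall of 1.3-fold (log2 fold change −0.38 ± 0.08, edgeR adjusted p = 0.002). At 7 days it was 184 ± 3.33 CPM, 3.28-fold lower than with Apc OFF (−1.72 ± 0.08, edgeR adjusted p = 2.2e-11).

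Ddx31 (ENSMUSG00000026806, chromosome 2, 28840406 to 28905571, plus strand), a nucleolar helicase, fell most of all 48 at 7 days. It had 41.8, 44.7 and 40.2 CPM with Apc OFF, 36, 33.1 and 31.8 CPM after 2 days and 11.4, 10.5 and 11 CPM after 7 days. No sample of one group overlapped another group, and the falls were 1.26-fold after 2 days (edgeR adjusted p = 0.0083) and 3.86-fold after 7 days (edgeR adjusted p = 1.9e-11). Without Apc OFF replicate 2 the call at 2 days was lost (edgeR adjusted p = 0.064).

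Ddx51, whose yeast counterpart acts in large-subunit assembly, had 58.1, 56.5 and 54.6 CPM with Apc OFF, 49.9, 47 and 47.6 CPM after 2 days and 17.4, 18.7 and 16.9 CPM after 7 days. The 3 groups were apart, with a fall of 3.19-fold after 7 days (edgeR adjusted p = 2.5e-11) and of 1.17-fold after 2 days (edgeR adjusted p = 0.036, lost in 6 of the 9 fits that left out 1 sample, with edgeR adjusted p up to 0.13).

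Dhx37 (ENSMUSG00000029480, chromosome 5, 125413858 to 125434121, minus strand), the counterpart of the yeast helicase that releases the U3 RNA from small-subunit precursors, showed the largest fall at 2 days. It had 86.3, 82.4 and 70.7 CPM with Apc OFF, 55.8, 58.4 and 46.9 CPM after 2 days and 36.5, 33 and 28.9 CPM after 7 days. The groups did not overlap. The log2 fold change was −0.57 ± 0.11 at 2 days (edgeR adjusted p = 0.001) and −1.28 ± 0.11 at 7 days (edgeR adjusted p = 2.8e-08). Dhx33, another nucleolar DEAH helicase, had 56.9, 58.5 and 64.8 CPM with Apc OFF, 47.1, 49.8 and 45.5 CPM after 2 days and 18.7, 18.9 and 20.5 CPM after 7 days. It fell 1.27-fold after 2 days (edgeR adjusted p = 0.0056) and 3.1-fold after 7 days (edgeR adjusted p = 7.4e-11), with no overlap between groups.

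The other ribosome assembly genes that fell at 7 days ran from Ddx27, which fell 2.83-fold, and Ddx18, which fell 2.77-fold, to Ddx24, which fell 1.38-fold. Ddx10, Ddx55, Ddx56, Ddx47 and Ddx52 lay between. The 2-day call of Ddx18 (edgeR adjusted p = 0.041) was lost in 10 of 20 alternatives. In 6 of those 1 sample was left out, with edgeR adjusted p up to 0.16. Ddx49 (log2 fold change −0.24, edgeR adjusted p = 0.058), Ddx54 (−0.17, edgeR adjusted p = 0.15) and Ddx50 (−0.04, edgeR adjusted p = 0.81) did not pass. For Ddx18 55.9% of the 50-base stretches of its transcripts also occur in another gene, mostly the pseudogene Gm16433, and for Ddx49 25.1%, shared with the overlapping gene Homer3. Counts of Ddx18 are uncertain for that reason. So are those of Ddx49 and Ddx54, since the library kit does not mark strand. For Ddx54 12.4% of the stretches were shared, mostly with Gm43579, which overlaps it on the other strand.

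Ddx50 is the paralog next to Ddx21 on chromosome 10 (62615895 to 62651218, minus strand), and it behaved otherwise. It had 21.2, 25.8 and 33.5 CPM with Apc OFF, 27.9, 28.6 and 34.7 CPM after 2 days and 21.1, 27 and 29.9 CPM after 7 days. These groups overlapped throughout. The ratio of Ddx21 to Ddx50 counts per kb, which no library scaling affects, was 55.3, 46.8 and 35 with Apc OFF, 33.8, 33.3 and 24.1 at 2 days and 17.3, 13.1 and 12.1 at 7 days. On the log2 scale it was 1.68 lower at 7 days (difference −1.68), with no overlap between 7 days and Apc OFF. An exact two-sided permutation test gave p = 0.1, the smallest that 3 against 3 samples allow, and 0.114 adjusted over the 8 ratio tests made on 4 paralog pairs after the changes had been seen.

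Genes whose products work beside these helicases fell as well. Their lists, like the other gene lists below, were drawn up with earlier results of these data known. Of 20 nucleolar partners (snoRNP proteins, processome and large-subunit assembly factors), 16 were lower at 2 days, beside 10.6% of all genes tested, and all 20 at 7 days, beside 41.8%, with a median log2 fold change of −1.84 at 7 days. Nop56, a box C/D snoRNP core protein, had a mean of 100 CPM at 7 days, against 390 CPM with Apc OFF. Nolc1, a nucleolar phosphoprotein, had 104 CPM at 7 days, against 408 CPM, and Wdr12, of the PeBoW complex of large-subunit assembly, 21.7 CPM, against 86.9 CPM. The edgeR adjusted p at 7 days was 4.7e-12 or lower for each of the 3. Markers of cycling cells moved too: all 6 (Mki67, Top2a, Cdk1, Ccnb1, Pcna, Mcm2) were lower at 7 days and 1, Mcm2, at 2 days. Their summed level was 2030 to 2040 CPM with Apc OFF, 1700 to 1900 CPM at 2 days and 653 to 717 CPM at 7 days, and their part in the helicase changes was not tested.

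**Figure D3:**
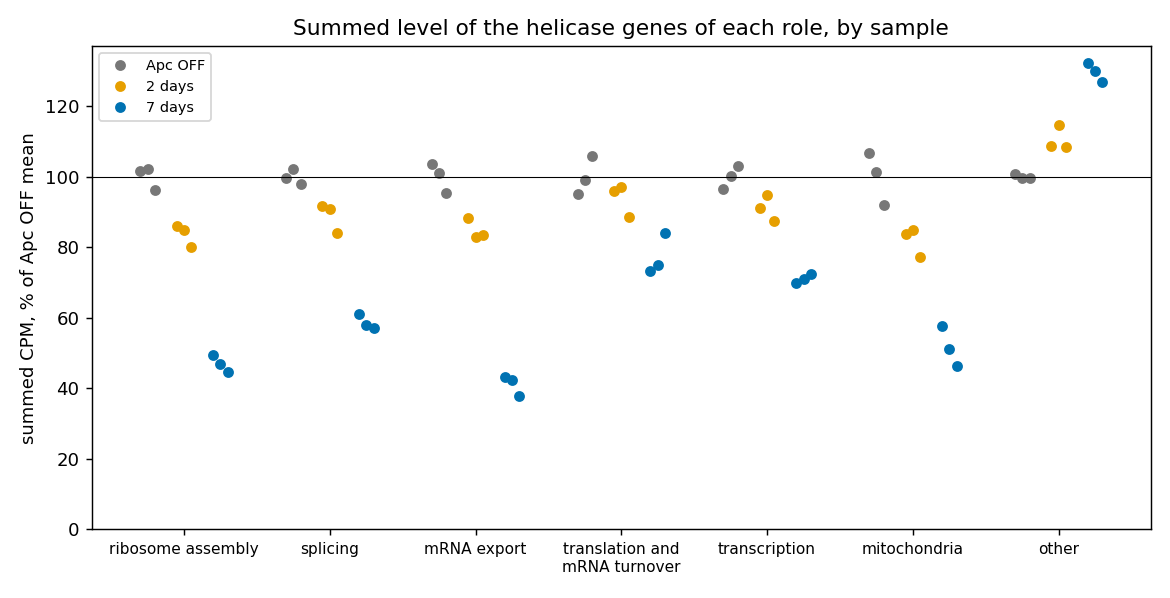
Summed CPM of the helicase genes of each role in every sample (points), as percent of the Apc OFF mean of that role (vertical axis), with the groups side by side in each role; the antiviral and germ-line roles are not drawn. Ribosome assembly and mRNA export lie lowest at 7 days, with sums 0.469 and 0.412 of Apc OFF. The sum of the other or little-known helicases lies above the line. Dhx32 held most of that sum, with a mean of 213 of 280 CPM at 7 days. Of the 5 genes in that role 3 were higher and 2 lower at 7 days.

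Of the 10 splicing helicases 2 were lower at 2 days, beside 10.6% of all genes tested, and 9 at 7 days, beside 41.8%. Their median log2 fold change was −0.17 at 2 days and −0.57 at 7 days, and their summed level at 7 days was 0.586 of that with Apc OFF. Several have yeast counterparts that drive single steps of the splicing cycle, and these did not move by the same amount.

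Ddx41 (ENSMUSG00000021494, chromosome 13, 55530410 to 55536658, minus strand), a helicase of the spliceosome that is also reported as a DNA sensor, had 64.2, 62.8 and 60.6 CPM with Apc OFF, 58.8, 51.8 and 55.5 CPM after 2 days and 17, 18.7 and 14.7 CPM after 7 days. All 3 groups were apart. The 7-day fall was 3.73-fold (−1.90 ± 0.09, edgeR adjusted p = 4.9e-11), and the 2-day value of −0.17 did not pass (edgeR adjusted p = 0.17). Its fall between 2 and 7 days, 3.3-fold, was the largest of the 48 (edgeR adjusted p = 2.1e-10). Of its transcripts' 50-base stretches 11.6% also occur in Gm46416, which overlaps it on the other strand.

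Ddx20 (ENSMUSG00000027905, chromosome 3, 105678270 to 105687574, minus strand), also called Gemin3, belongs to the SMN complex that builds spliceosomal snRNPs. It had 67.5, 73 and 76.5 CPM with Apc OFF, 53.6, 54.1 and 53.6 CPM after 2 days and 24.1, 22.2 and 23.2 CPM after 7 days. The groups lay far apart beside their spread, and Ddx20 fell 1.35-fold after 2 days (edgeR adjusted p = 0.00055) and 3.12-fold after 7 days (edgeR adjusted p = 2.9e-11).

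Dhx15, the counterpart of yeast Prp43, which takes spliceosomes apart and also acts on ribosome precursors, had 264, 286 and 308 CPM with Apc OFF, 257, 254 and 253 CPM after 2 days and 119, 120 and 140 CPM after 7 days. The 7-day samples lay far below the others (−1.18 ± 0.09, edgeR adjusted p = 4.9e-09), and the 2-day value of −0.17 did not pass (edgeR adjusted p = 0.18). Ddx46, the counterpart of yeast Prp5, fell 2.35-fold after 7 days (edgeR adjusted p = 2.1e-09). Ddx23, the counterpart of Prp28, fell 1.57-fold (edgeR adjusted p = 3.5e-06).

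Dhx8, the counterpart of yeast Prp22, which releases spliced mRNA, differed in its time course. It had 67.6, 70 and 62.1 CPM with Apc OFF, 52.4, 56.5 and 46.8 CPM after 2 days and 55.8, 52.3 and 46.2 CPM after 7 days. Samples of both times lay below Apc OFF and overlapped each other. It fell 1.28-fold after 2 days (edgeR adjusted p = 0.01) and 1.3-fold after 7 days (edgeR adjusted p = 0.0017), and the 7-day and 2-day groups differed by −0.01 (edgeR adjusted p = 0.89). The 2-day call was lost without Apc OFF replicate 2 or without 2-day replicate 3 (edgeR adjusted p up to 0.061). Dhx16, the counterpart of Prp2, fell 1.24-fold after 7 days (edgeR adjusted p = 0.0022), and Dhx38, the counterpart of Prp16, had a log2 fold change of −0.04 (edgeR adjusted p = 0.75). Dhx35 and Ddx42 also fell at 7 days.

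Other spliceosome proteins fell alongside. Of 20 listed partners 3 were lower at 2 days, beside 10.6% of all genes tested, and 19 at 7 days, beside 41.8%, with a median of −1.07 at 7 days. U2af1, which reads the 3′ splice site, had 53 CPM at 7 days, against 169 CPM with Apc OFF. Prpf4 of the U4/U6 snRNP had 22.9 CPM at 7 days, against 66.6 CPM, and Sf3a3, a subunit of the U2 snRNP, had 48.6 CPM, against 119 CPM. The edgeR adjusted p was 2.2e-10 or lower for each. Of 21 genes with a G-patch, a short domain by which cofactors switch on DEAH helicases, 12 were lower and 5 higher at 7 days, beside 41.8% lower and 40.5% higher among all genes tested. Pinx1, a G-patch protein of the nucleolus, had 5.6 CPM at 7 days, against 21.7 CPM with Apc OFF (edgeR adjusted p = 5.6e-10). Rbm10, a splicing regulator, had 46.5 CPM at 7 days, against 123 CPM (edgeR adjusted p = 1.9e-10), and Gpatch4 had 20.5 CPM, against 55.1 CPM (edgeR adjusted p = 2.6e-10).

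All 4 mRNA export helicases were lower at 7 days, beside 41.8% of all genes tested, and 1 at 2 days, beside 10.6%, with medians of −1.07 and −0.18. Their summed level was 972, 947 and 894 CPM with Apc OFF, 828, 777 and 783 CPM after 2 days and 406, 398 and 356 CPM after 7 days, which is 0.412 of Apc OFF at 7 days. Ddx39 (also Ddx39a) and Ddx39b (also UAP56) are close paralogs of the TREX export pathway. Ddx39 had 462, 437 and 416 CPM with Apc OFF, 377, 335 and 349 CPM after 2 days and 146, 144 and 126 CPM after 7 days. The groups were apart, with falls of 1.24-fold after 2 days (edgeR adjusted p = 0.014) and 3.16-fold after 7 days (edgeR adjusted p = 7.9e-11). The 2-day call of Ddx39 was lost without Apc OFF replicate 1 or 2 (edgeR adjusted p up to 0.07), and 13% of its 50-base stretches occur elsewhere, mainly in the overlapping gene Adgre5.

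Ddx39b had 219, 216 and 195 CPM with Apc OFF, 192, 187 and 188 CPM after 2 days and 105, 104 and 88.2 CPM after 7 days. Its groups were apart as well, with a fall of 2.12-fold after 7 days (edgeR adjusted p = 9.7e-09) and a 2-day value that did not pass (−0.16, edgeR adjusted p = 0.2). The ratio of Ddx39 to Ddx39b counts per kb was 1.54, 1.48 and 1.56 with Apc OFF, 1.44, 1.32 and 1.37 at 2 days and 1.02, 1.01 and 1.05 at 7 days. It did not overlap between the groups (log2 difference −0.58 at 7 days, exact two-sided permutation p = 0.1, 0.114 adjusted). Ddx19a and Ddx19b, which remodel mRNPs at the nuclear pore, fell 2.07-fold and 1.78-fold after 7 days. They share sequence, since 28.1% of the 50-base stretches of Ddx19a occur in Ddx19b, so the split of reads between them is uncertain.

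Of the 6 helicases of translation and mRNA turnover none was called at 2 days in edgeR, with 1 lower and 0 higher at an unadjusted p under 0.05 and 0 called by DESeq2 or limma-voom. At 7 days 4 fell and 1 rose, beside 41.8% lower and 40.5% higher among all genes tested. Dhx34, a factor of nonsense-mediated decay, did not pass (log2 fold change 0.09, edgeR adjusted p = 0.56). Their summed level at 7 days was 0.773 of that with Apc OFF.

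Dhx29 (ENSMUSG00000042426, chromosome 13, 112927454 to 112969432, plus strand), which helps the small ribosomal subunit to scan structured mRNA leaders, fell most. It had 45.6, 46.7 and 46.9 CPM with Apc OFF, 39.3, 44.3 and 37 CPM after 2 days and 11.7, 12.9 and 13.3 CPM after 7 days. Its 7-day samples lay far below the rest, a fall of 3.67-fold (−1.88 ± 0.09, edgeR adjusted p = 4e-11), while the 2-day value of −0.21 did not pass (edgeR adjusted p = 0.092).

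Ddx3x (ENSMUSG00000000787, chromosome X, 13280970 to 13294052, plus strand) had 493, 515 and 559 CPM with Apc OFF, 496, 497 and 429 CPM after 2 days and 375, 376 and 440 CPM after 7 days. The 7-day samples lay below Apc OFF but overlapped the 2-day samples. It fell 1.32-fold after 7 days against Apc OFF (edgeR adjusted p = 0.0011), and at 2 days it did not pass (−0.14, edgeR adjusted p = 0.31). Ddx1, of tRNA ligation and mRNA transport, fell 1.59-fold after 7 days (edgeR adjusted p = 2.6e-07). Dhx36, which opens G-quadruplexes, fell 1.37-fold (edgeR adjusted p = 0.00053).

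Ddx6 (ENSMUSG00000032097, chromosome 9, 44604892 to 44640731, plus strand), a core protein of P-bodies that represses translation and promotes decapping, was among the few that rose. It had 146, 158 and 179 CPM with Apc OFF, 149, 170 and 154 CPM after 2 days and 171, 185 and 209 CPM after 7 days. The 7-day samples overlapped Apc OFF and lay above the 2-day samples. The rise of 1.17-fold passed narrowly at 7 days (edgeR adjusted p = 0.042), was lost in 10 of 20 alternatives and had the opposite sign with library size alone (−0.18). Leaving out 1 sample lost that call in 6 cases, with edgeR adjusted p up to 0.18.

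Helicases act in translation beside the eIF4A proteins, which are DEAD box helicases under another name. Of 12 genes of the eIF4A family and its partners, 9 were lower and 2 higher at 7 days, beside 41.8% and 40.5% of all genes tested. Eif4a1, the main eIF4A, had 841 CPM at 7 days, against 1850 CPM with Apc OFF (edgeR adjusted p = 6.1e-09). Nom1, a nucleolar eIF4A-binding protein, had 37 CPM at 7 days, against 69 CPM (edgeR adjusted p = 1.9e-08). Pdcd4, an inhibitor of eIF4A, rose to 11.1 CPM at 7 days, against 1.59 CPM with Apc OFF (6.9-fold, edgeR adjusted p = 1.4e-10). The other riser was Eif4a2, itself of the eIF4A family, at 170 CPM, against 96.5 CPM with Apc OFF (1.76-fold, edgeR adjusted p = 3.2e-05).

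The 3 transcription coregulators were all lower at 7 days, beside 41.8% of all genes tested. At 2 days none was called in edgeR, with 1 lower at an unadjusted p under 0.05, 1 by DESeq2 and 0 by limma-voom. Ddx5 and Ddx17 are paralogs, known as p68 and p72, that act in transcription, splicing and microRNA processing. Ddx5 had 450, 480 and 519 CPM with Apc OFF, 456, 450 and 457 CPM after 2 days and 410, 428 and 441 CPM after 7 days. The 7-day samples lay just below the other groups, and the fall of 1.13-fold passed narrowly (edgeR adjusted p = 0.044) and was lost in 10 of 20 alternatives. In 5 of those 1 sample was left out, with edgeR adjusted p up to 0.17. Of its 50-base stretches 14.6% occur in another gene, mostly Gm12183.

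Ddx17 had 350, 345 and 328 CPM with Apc OFF, 295, 317 and 272 CPM after 2 days and 222, 223 and 213 CPM after 7 days. The groups did not overlap. It fell 1.55-fold after 7 days (edgeR adjusted p = 1.9e-06), and the 2-day value of −0.21 did not pass (edgeR adjusted p = 0.062). The ratio of Ddx5 to Ddx17 counts per kb was 1.7, 1.84 and 2.09 with Apc OFF, 2.05, 1.88 and 2.22 at 2 days and 2.44, 2.54 and 2.74 at 7 days. At 7 days it lay above Apc OFF without overlap (log2 difference 0.46, exact two-sided permutation p = 0.1, 0.114 adjusted).

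Dhx9, RNA helicase A, had 270, 288 and 298 CPM with Apc OFF, 255, 281 and 240 CPM after 2 days and 141, 134 and 148 CPM after 7 days. The 7-day samples lay at about the same level and far below the rest (−1.01 ± 0.08, edgeR adjusted p = 1.6e-08), and the 2-day value of −0.14 did not pass (edgeR adjusted p = 0.24).

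Both mitochondrial helicases, which act in assembly of the mitochondrial ribosome, fell at 7 days, beside 41.8% of all genes tested. Ddx28 fell 2.11-fold after 7 days (edgeR adjusted p = 3.2e-07). Dhx30 fell 1.23-fold after 2 days (edgeR adjusted p = 0.024, lost in 4 of the 9 fits that left out 1 sample, with edgeR adjusted p up to 0.097) and 1.91-fold after 7 days (edgeR adjusted p = 1.3e-07).

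**Figure D4:**
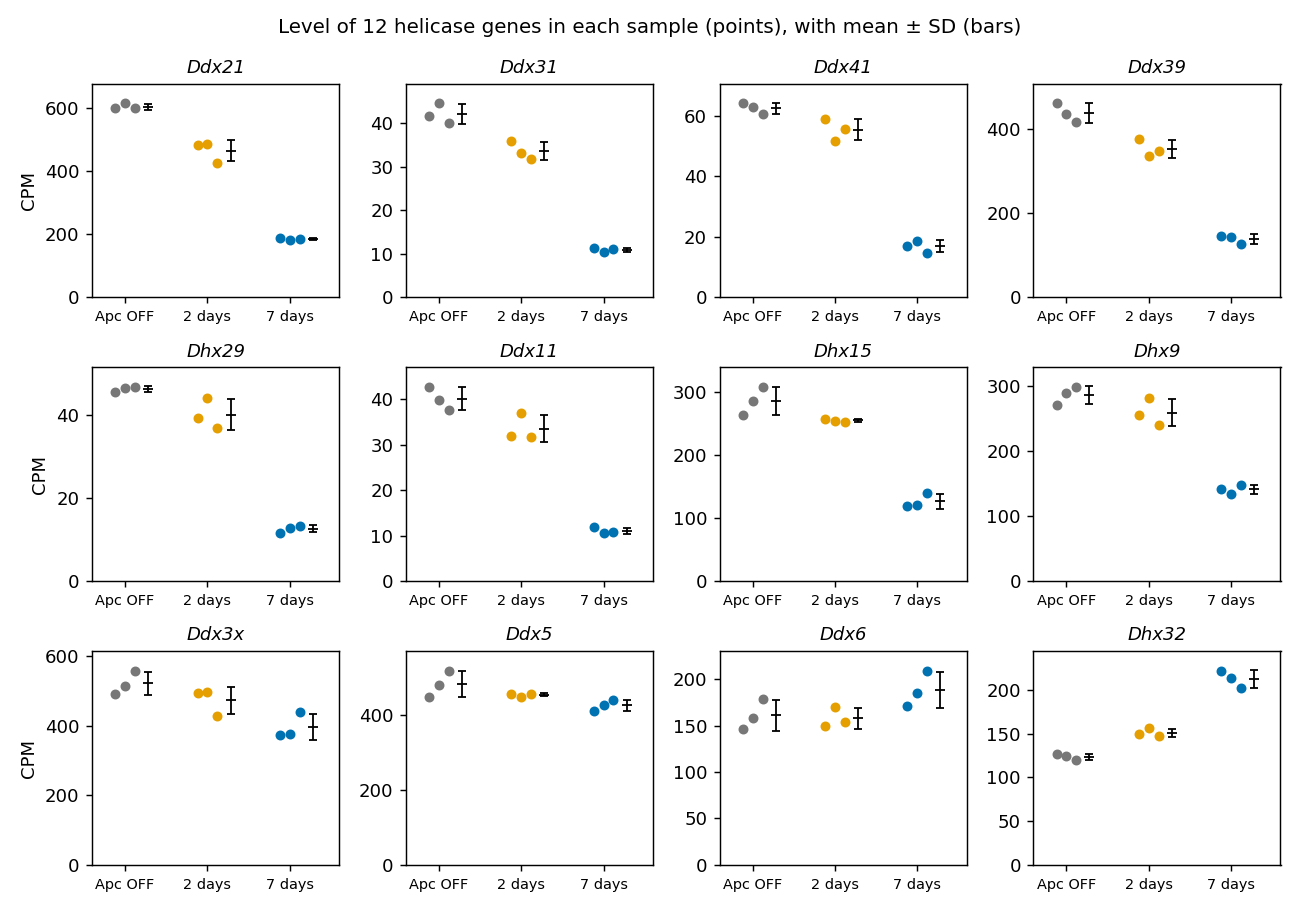
CPM (vertical axes, from 0) of 12 helicase genes in each sample (points) with mean ± SD (bars), for Apc OFF, 2 days and 7 days. Ddx21, Ddx31, Ddx41, Ddx39, Dhx29 and Ddx11 stand far lower at 7 days than at 2 days, Ddx5 changes little, and Dhx32 steps up with 120 to 127, 147 to 156 and 202 to 222 CPM.

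Both antiviral helicases rose at 7 days, beside 40.5% of all genes tested. Ddx60 (ENSMUSG00000037921, chromosome 8, 61928087 to 62038244, plus strand), an interferon-induced cofactor of antiviral RNA sensing, had 15, 23 and 18 counts with Apc OFF, 50, 34 and 39 at 2 days and 1100, 834 and 874 at 7 days. In CPM these are 0.579, 0.66 and 0.639 with Apc OFF, 1.53, 1.18 and 1.2 at 2 days and 47.6, 31.3 and 32 at 7 days. The groups did not overlap, and 7-day replicate 1 was the highest. Ddx60 was 58.3-fold higher at 7 days than with Apc OFF (5.86 ± 0.21, edgeR adjusted p = 1.2e-12), and 5.65 on the log2 scale without 7-day replicate 1. At 2 days it was 2.07-fold higher (edgeR adjusted p = 0.02), a call lost without Apc OFF replicate 1 (edgeR adjusted p = 0.053) or 2-day replicate 1 (edgeR adjusted p = 0.078). That call was also lost with limma-voom and with glmTreat against a fold of 1.2, so in 4 of 20 alternatives.

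Dhx58 (ENSMUSG00000017830, chromosome 11, 100694884 to 100704271, minus strand) encodes Lgp2, a regulator of cytoplasmic RNA sensors. It had 8, 16 and 16 counts with Apc OFF, 16, 17 and 13 at 2 days and 270, 178 and 151 at 7 days. Samples at 2 days overlapped those with Apc OFF, and the 7-day samples lay far above both, again with replicate 1 the highest. Dhx58 was 17.4-fold higher at 7 days than with Apc OFF (4.12 ± 0.31, edgeR adjusted p = 7.6e-09), and 3.75 on the log2 scale without 7-day replicate 1. At 2 days it did not pass (0.12, edgeR adjusted p = 0.89).

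Interferon-induced genes outside the family rose too. Of 18 listed and found in the table, 16 were higher and 1 lower at 7 days, beside 40.5% higher and 41.8% lower among all genes tested. At 2 days 3 were higher and 1 lower, beside 13.1% and 10.6%. Their summed level was 65.5 to 70 CPM with Apc OFF, 81 to 82.1 CPM after 2 days and 923, 600 and 524 CPM after 7 days, with replicate 1 the highest here as well. Oasl1, of the oligoadenylate synthetase family, had 225 CPM at 7 days, against 5.44 CPM with Apc OFF (edgeR adjusted p = 8.2e-14). Irf7, a transcription factor of the interferon response, had 122 CPM, against 2.17 CPM (edgeR adjusted p = 2.4e-11), and Ifit1 had 22.6 CPM, against 0.169 CPM (edgeR adjusted p = 1.9e-11). Among 15 tested RNA helicases outside the naming rule 5 were higher and 8 lower at 7 days, beside the same 40.5% and 41.8%. The risers with the smallest p were Dqx1, a DEAQ box helicase, at 45.1 CPM, against 2.06 CPM with Apc OFF (edgeR adjusted p = 1.6e-14), Helz2, at 84.5 CPM, against 20.9 CPM (edgeR adjusted p = 2.5e-11), and the viral RNA sensor Ifih1, also among the 18, at 39.4 CPM, against 7.36 CPM (edgeR adjusted p = 2.7e-11).

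Immune cells also express these antiviral genes. The 5 immune markers summed to 1.17 to 1.35 CPM with Apc OFF, 1.32 to 1.75 CPM at 2 days and 3.74 to 5.71 CPM at 7 days. Both that passed the filter were higher at 7 days than with Apc OFF. Csf1r, a receptor of macrophages, had 26, 22 and 25 counts at 7 days, against 1, 0 and 1 with Apc OFF (35.5-fold, edgeR adjusted p = 1.9e-07). Cd68, a lysosomal protein abundant in macrophages, had 101, 81 and 73 counts at 7 days, against 31, 38 and 29 with Apc OFF (3.02-fold, edgeR adjusted p = 6.1e-06). Ptprc, the pan-leukocyte gene CD45, had at most 9 counts in any sample, Cd3e at most 4, and Adgre1 was at 0 in all samples but 1 at 2 days with 1 count. The part of the Cd68 and Csf1r signal in the antiviral result was not tested.

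**Figure D5:**
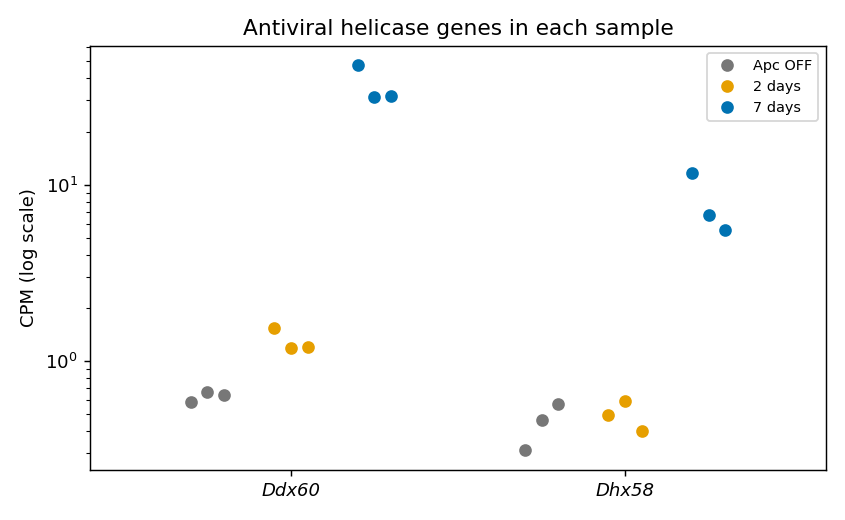
CPM (vertical axis, log scale) of Ddx60 and Dhx58 in each sample, with groups side by side. The 7-day samples of Ddx60 lie at 31.3 to 47.6 CPM and those of Dhx58 at 5.54 to 11.7 CPM, all above the Apc OFF and 2-day samples.

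The 5 remaining tested helicases, of other or little-known function, included 3 that rose and 2 that fell at 7 days, beside 40.5% higher and 41.8% lower among all genes tested. Dhx32 (ENSMUSG00000030986, chromosome 7, 133720942 to 133782726, minus strand) had 127, 124 and 120 CPM with Apc OFF, 150, 156 and 147 CPM after 2 days and 222, 214 and 202 CPM after 7 days. The groups were apart and in order of time. It was 0.29 ± 0.07 higher at 2 days on the log2 scale (edgeR adjusted p = 0.0078) and 0.78 ± 0.07 higher at 7 days (edgeR adjusted p = 6.1e-08), and 0.38 higher at 7 days with library size alone.

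Dhx40 had 26.1, 28.5 and 31.7 CPM with Apc OFF, 30.6, 32.2 and 31.1 CPM after 2 days and 32.3, 35.1 and 40 CPM after 7 days. Its 7-day samples lay above Apc OFF without overlap (0.32 ± 0.10, edgeR adjusted p = 0.0068). Dhx57 had 12.6, 12.7 and 15 CPM with Apc OFF, 13.9, 14.8 and 14.4 CPM after 2 days and 15.6, 16.9 and 16.7 CPM after 7 days, also without overlap (0.29 ± 0.10, edgeR adjusted p = 0.012). With library size alone both had a value below 0, −0.08 for Dhx40 and −0.12 for Dhx57, so their direction depends on the scaling. The Dhx57 call was also lost without Apc OFF replicate 1 or 2 (edgeR adjusted p up to 0.064).

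Ddx11 (ENSMUSG00000035842, chromosome 17, 66123520 to 66152174, plus strand) carries the family's name but encodes an iron-sulfur DNA helicase of sister chromatid cohesion. It had 42.7, 39.9 and 37.7 CPM with Apc OFF, 31.9, 36.9 and 31.6 CPM after 2 days and 11.8, 10.6 and 10.7 CPM after 7 days. The groups were apart, with falls of 3.63-fold after 7 days (edgeR adjusted p = 7.6e-11) and 1.2-fold after 2 days (edgeR adjusted p = 0.043, lost in 5 of the 9 fits that left out 1 sample, with edgeR adjusted p up to 0.17). Ddx59, expressed at 9.27 to 10.8 CPM with Apc OFF, fell 2.48-fold after 7 days.

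The 3 germ-line helicases were not tested. Ddx4, the Vasa gene of germ cells, had 3, 7 and 8 counts summed over the Apc OFF, 2-day and 7-day groups, Ddx25 had 14, 28 and 10, and Ddx43 had 1, 0 and 0. Of 5 further germ-cell markers Piwil2 alone had more than 2 counts in any sample, with 11 to 19.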

How the data were processed

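RNA from 9 samples in 3 groups was sequenced. The values the authors deposited are unnormalised counts in 1 table, which per the submitters' processing notes came from STAR 2.7.0e and featureCounts, with DESeq2 also named, on builds mm10 and GRCm38. Per the labels' protocols, libraries were poly(A) selected with a NEBNext Ultra II kit that does not mark strand. For the annotation release and strand setting, the sources used here give nothing.

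Symbols, coordinates and exon lengths were taken from GENCODE M21, which held 21236 of the 21253 IDs, and promoters from RefSeq (GRCm38.p6). Counts were filtered with filterByExpr, scaled with TMM and fitted in edgeR 4.0.16 (glmQLFit and glmQLFTest, R 4.3.3, limma 3.58.1) with all 9 samples and group as the only term. Tests were two-sided, adjusted by Benjamini-Hochberg over 12535 genes and called under 0.05. The SE is the absolute log2 fold change over the square root of F, and can be too small at few counts. Replicates differed by more than sampling noise (chi-square per degree of freedom 4.24 to 38.3). Shared sequence was measured as the percent of 50-base stretches of a gene's transcripts found in another gene; 9 helicase genes had 10% or more.

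The helicase genes, roles and lists were chosen with earlier results of these data known. Values in every sample are given for the called genes with the largest change in each direction, and for 12 representatives. The called genes were up to 6 against Apc OFF and up to 4 between 7 and 2 days. All of these called genes had at least 5 CPM in the higher group. Up to 3 genes with the smallest p were named per list, and Eif4a2 was named beside them. Paralog ratios and 2 motifs were added after values had been seen. Protein sequences and 2 genes whose names fit were not analysed here.

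On simulated counts the fit recovered, of 50 genes each, 22%, 12% and 22% changed by 1.2-fold at 2 days, at 7 days and between them, 86%, 96% and 94% changed by 1.5-fold, and 100% changed by 2-fold or 4-fold. Of its calls 4.94%, 4.94% and 5.39% were of unchanged genes (12139, 12141 and 12148 genes). Each simulation started from Apc OFF levels, changed 200 genes and gave every gene the same spread (dispersion 0.00723). In the data 1636 genes were called higher and 1333 lower at 2 days. The simulated rates therefore need not carry over to the data. Alternative fits changed the scaling (library size alone, upper-quartile factors or DESeq2 size factors), the filter (none, or 5 CPM on average), the tool (the Wald test of DESeq2 1.42.0, limma-voom, or glmTreat with a fold of 1.2) or the samples (only the groups compared, a replicate block, each sample left out, the 100 most abundant genes left out).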

Additional observations from a re-analysis of the deposited data

How the results depend on the processing

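The counts of helicase genes lower at 7 days were 36 to 38 against Apc OFF and 32 to 35 against 2 days when 1 sample was left out, beside 37 and 34 with all samples. With library size alone they were 42 and 41, and with glmTreat 34 and 30. Of the 37 lower against Apc OFF 34 were called in every alternative. The 12 lower at 2 days became 2 with glmTreat against a fold of 1.2 and 5 to 15 without 1 sample; Ddx20 and Dhx37 were called in every alternative. The 2 higher at 2 days became 1 with limma-voom, 0 with glmTreat and 1 to 2 without 1 sample. The 6 higher at 7 days became 3 with library size alone, 3 with upper-quartile factors, 3 with glmTreat and 4 to 6 without 1 sample. The 4 higher at 7 days against 2 days became 2 with library size alone, 6 with DESeq2 size factors or the DESeq2 Wald test and 3 to 5 without 1 sample. The cause was not tested for these, except that glmTreat asks for a larger change.

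Signs turned for small values, of which only some are given here. Ddx1 and Ddx10 at 2 days and Ddx50, Dhx34 and Dhx38 at 7 days against Apc OFF also turned in some alternative. So did further genes at 7 days against 2 days, Ddx49 and Dhx8 among them. With library size alone, Dhx40 (−0.08), Dhx57 (−0.12) and Ddx6 (−0.18) were below 0 at 7 days against Apc OFF, and Ddx6 against 2 days (−0.15). When 1 sample was left out, the 2-day value of Ddx6 ran from −0.09 to 0.05 (0 without 2-day replicate 1), and that of Dhx58 from −0.05 to 0.31 (−0.02 without 2-day replicate 2). Apc kept its direction throughout, with 1.92 to 2.22 at 2 days, 3.21 to 3.49 at 7 days and 1.13 to 1.44 between them.

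Replicate numbers are shared across groups and went with the samples' deviations from their group means in part. Deviations of same-numbered samples correlated at 0.243, 0.041 and 0.28 between 2 days and Apc OFF. They correlated at 0.502, −0.01 and 0.64 between 7 days and Apc OFF, and at 0.141, −0.216 and 0.147 between 7 and 2 days. Each sample numbered 1 or 3 correlated best with a sample of its own number in another group. The samples numbered 2 did not. The main fit has no term for the replicate number. With the replicate block, 18 were lower and 2 higher at 2 days, 39 lower and 6 higher at 7 days, and 36 lower and 7 higher at 7 days against 2 days. Of all genes the block called 15.7% lower and 16.6% higher at 2 days, 43.3% lower and 41.8% higher at 7 days, and 41.7% lower and 40.6% higher at 7 days against 2 days.

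With 3 samples a group, changes under 1.5-fold were near the limit of what the fit found in the simulated counts. Most 2-day values were that small. In the simulation far fewer genes changed than were called here, so it does not give the limit for these data. Genes with under 25 counts in a sample, such as Dhx58 and Ddx60 with Apc OFF, carry large counting error.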
